A study of Mus musculus with 6 samples.

Results

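High Blimp-1 was set against its labelled absence in splenic CD4 T cells of the NOD mouse, which becomes diabetic through autoimmunity without being induced to. The comparison uses 4 of the 6 libraries of the study. They are 2 from mice that overexpress Blimp-1 (BTg) and 2 from mice labelled deficient in it (CKO). The other 2, from control mice (WT), are shown beside them and share in the estimate of the spread. All mice were 12 weeks old, total CD4 T cells were sorted from spleen, and the cells received no further stimulation of the T cell receptor. A promoter for the transgene, a Cre line and the deleted exons were not given in the sources used here. Nor is it stated that the 2 samples of a group are different animals, and p-values therefore measure the spread between libraries, which may be technical. Of 28914 genes in the deposited table, 10798 reached 1 FPKM (fragments per kilobase of gene, scaled to library size) in at least 2 libraries and were tested.

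Blimp-1, encoded by Prdm1, is a zinc-finger protein that binds DNA and recruits histone-modifying corepressors, and is best known as the repressor that ends the B cell programme in plasma cells. In T cells it opposes Bcl6, the repressor that directs T follicular helper (Tfh) cells, the helpers of germinal centre B cells. It also limits interleukin-2 production and acts in effector and regulatory T cells. Tfh cells and effector cells supply interleukin-21, the cytokine named in the title of the series.

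Between 14958458 and 17799091 reads were counted on genes in each library. CD4 T cell identity was present in all 6, with Cd4 at 53.8 to 103 FPKM. Cd8a was at most 0.13 FPKM, and Cd8a and Cd8b1 together were at most 0.844 FPKM, in WT replicate 1. CKO replicate 1 stood apart from the other libraries. Neutrophil markers made up 1.72% of its reads, compared with 0.0522% in CKO replicate 2 and 0.0123 to 0.0439% in WT and BTg. Immunoglobulin segments made up 6.99%, 1.8% and 0.704 to 1.17% in the same order. Most list medians are therefore given against both CKO libraries and against CKO replicate 2 alone, and genes with their value in each library. Counts of higher or lower means, and of groups that do not overlap, use both CKO libraries and were not repeated against CKO replicate 2 alone. In these bulk libraries fewer cells of a type and less RNA per cell cannot be told apart.

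**Figure D1:**
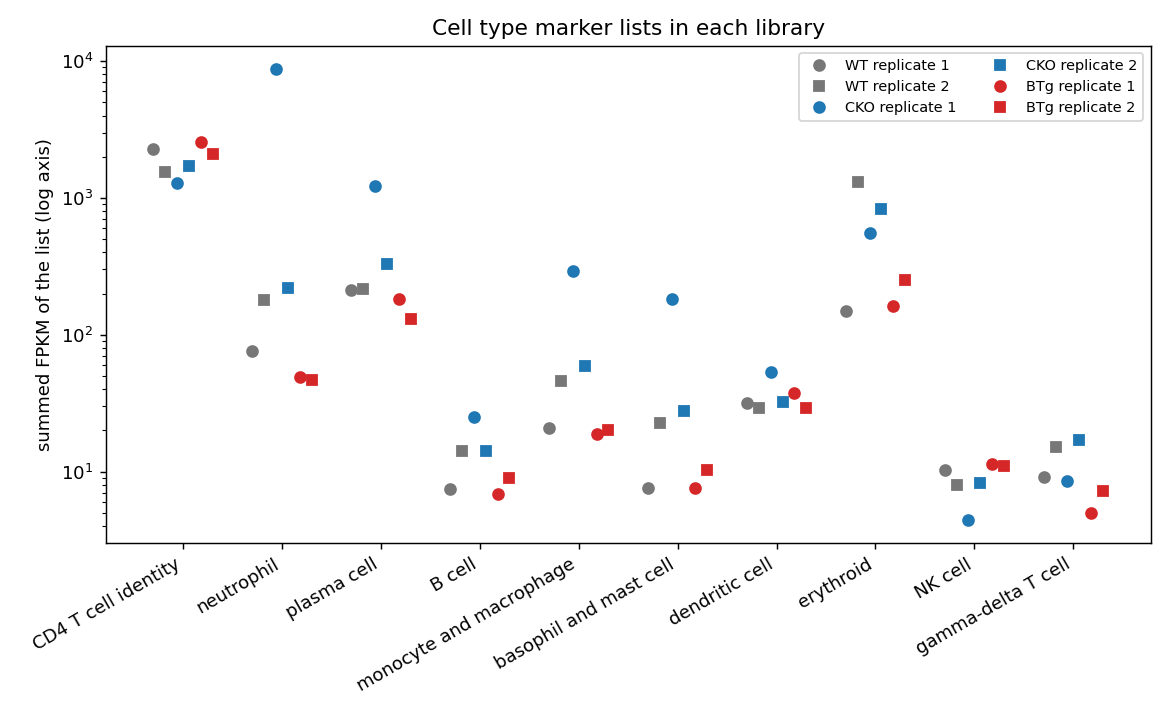
Summed FPKM (log axis) of 10 cell type marker lists in the 6 libraries, with circles for replicate 1 and squares for replicate 2. CKO replicate 1 has 8829 FPKM of neutrophil markers, against 219 in CKO replicate 2 and 48.9 and 46.6 in BTg, and the lowest sum of CD4 T cell identity markers.

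Only Prdm1 and Igfbp4 passed in the limma fit over all genes tested, 1 in each direction, which is 0.0185% of 10798 (0.00926% in each direction), and 949 genes (8.79%) had an unadjusted p under 0.05. Both calls ended without CKO replicate 1 (limma adjusted p = 0.329 for Prdm1 and 0.174 for Igfbp4), without WT replicate 1 (0.252 for both) and without WT replicate 2 (0.251 for both), at differences of 3.85 to 3.92 and -4.19 to -4.46. They also ended in a fit of the 4 BTg and CKO libraries only (limma adjusted p = 0.25 for both), after quantile normalization (0.127 for both) and with the replicate number as a block (0.103 for both). Without either BTg library Igfbp4 did not pass (0.493 to 0.536) and Prdm1 was under the filter on low values. Genes lower in BTg outnumbered those higher once small differences were set aside. The mean was higher in BTg for 6053 genes (56.1%) and lower for 4745 (43.9%). The 2 BTg and 2 CKO libraries did not overlap for 1918 genes higher in BTg (17.8%) and 2356 lower (21.8%), together 39.6%. With a difference of at least 1 in log2(FPKM + 1) as well, 211 were higher (1.95%) and 588 lower (5.45%), together 7.4%. When the same difference was also asked of BTg against CKO replicate 2 alone, 58 higher (0.537%) and 355 lower (3.29%) remained. These are called the genes that stood apart below. Against CKO replicate 2 alone 153 of the higher and 233 of the lower genes were lost. With CKO replicate 1 as the only CKO library 1051 were higher and 895 lower, and without BTg replicate 1 the higher count was 93.

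Among protein-coding genes 15 of 8421 stood apart as higher in BTg (0.178%) and 195 as lower (2.32%). Of the 195, 31 are on the lists of markers of other cell types, 19 on the cell cycle list, 37 on other lists and 108 on none. The WT mean lay nearer to the BTg mean for 152 of the 195 and nearer to the mean of both CKO libraries for 43. Both WT libraries lay between the BTg and CKO libraries for 69. For the 15 higher genes these counts were 8, 7 and 11. They were not taken against CKO replicate 2 alone or over all genes, so the part of CKO replicate 1 in them was not tested. Just inside the difference of 1 were Tmie and Ccr9, at 1.01 and 1.05 against CKO replicate 2, and Sostdc1 and Cdc42bpb, each at -1.005 in the smaller of their 2 differences. Just outside it were Jund and Ifit1bl1, at 0.998 and 0.992, and Ces2g and Tspo2, at -0.999 and -0.996.

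**Figure D2:**
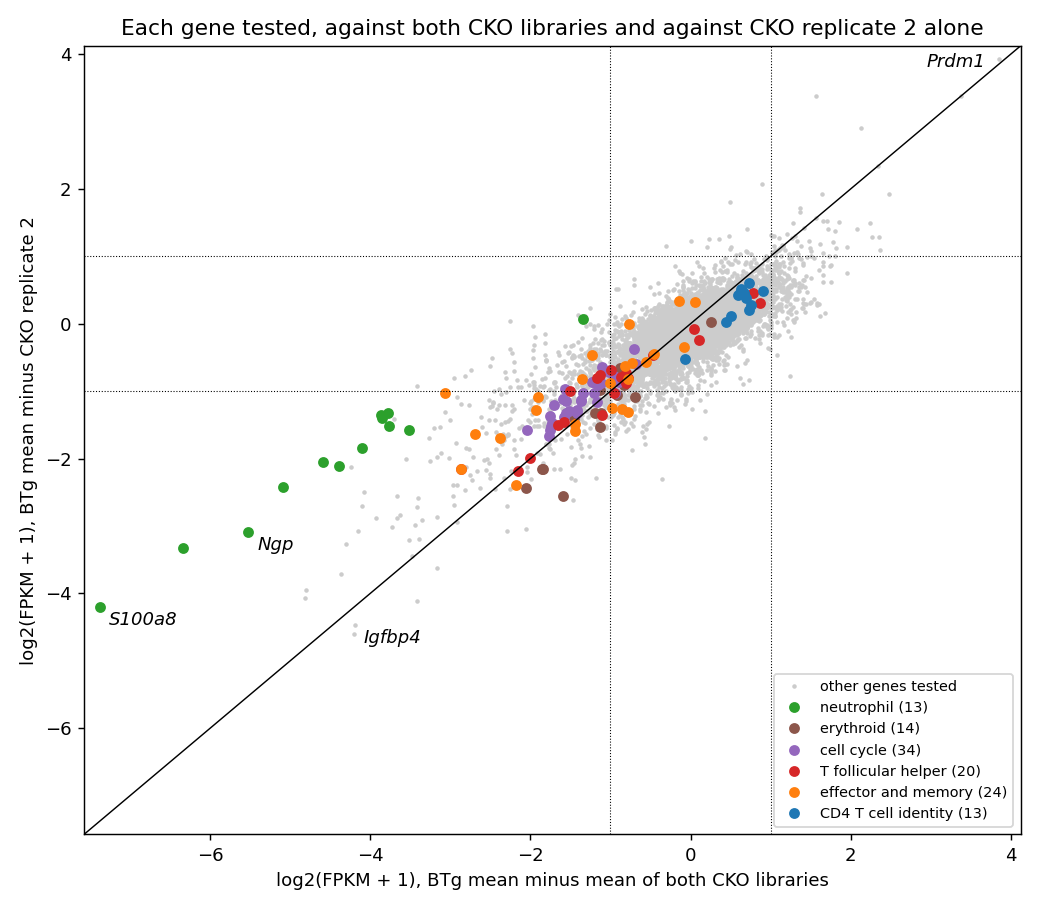
Difference in log2(FPKM + 1) of each of 10798 genes, BTg minus both CKO libraries (x axis) and BTg minus CKO replicate 2 alone (y axis), with 6 gene lists in colour, dotted lines at 1 and -1 and the line of equality. Neutrophil markers lie far above the line on the left, as their median difference shrank from -4.10 to -1.84, while Tfh genes stay near it, with medians of -0.97 and -0.81.

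Prdm1 (ENSMUSG00000038151, on the minus strand of chromosome 10 from 44437177 to 44528501, GRCm38) separated the groups by the widest margin of any protein-coding gene higher in BTg. It stood at 19.6 and 30.1 FPKM in BTg and at 0.849 and 0.669 in CKO, from 6275 and 9443 reads against 317 and 249. It rose by 3.85 (SE 0.26) on the log2(FPKM + 1) scale (limma adjusted p = 0.0363), and by 3.92 against CKO replicate 2. WT had 0.458 and 0.628 FPKM, so the library level of Prdm1 was not lower in CKO than in WT. A deletion of some exons need not lower the sum over the gene, so the library level does not check the CKO label. Of 6 tested members of the PR-domain family, to which Prdm1 belongs, only Prdm1 stood apart, as higher, beside 0.537% of all genes.

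A predicted non-coding gene next to Prdm1, Gm35028 (ENSMUSG00000111078, chromosome 10, 44418400 to 44424324 on GRCm38, minus strand), had reads in CKO and almost none elsewhere. It was chosen after its values were seen. It lies 12853 bases past the 3′ end of Prdm1 on the same strand. The reads were 210 and 365 in CKO, 2 and 2 in WT, and 0 and 0 in BTg. Set against a floor of 3 reads over the BTg group, Gm35028 was at least 163-fold lower in BTg than in CKO. It passed with limma voom on recovered reads (adjusted p = 0.0269), where 5 of 15927 genes did (0.0314%) and 2187 had an unadjusted p under 0.05 (13.7%), and did not pass in the fit on log2(FPKM + 1) (difference -1.87, limma adjusted p = 0.2). Both CKO libraries carried this transcript, and the level in CKO replicate 1, the library with the neutrophil markers, was the lower of the 2.

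Pcsk1, encoding a convertase that cleaves prohormones, was likewise read in CKO and not in BTg. It was chosen after its values were seen. It had 84 and 99 reads in CKO, 5 and 3 in WT and 0 and 0 in BTg, which is at least 51.9-fold lower in BTg, with limma voom adjusted p = 0.0424. At 0.283 and 0.335 FPKM in CKO it was below the filter on low values of the main fit.

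**Figure D3:**
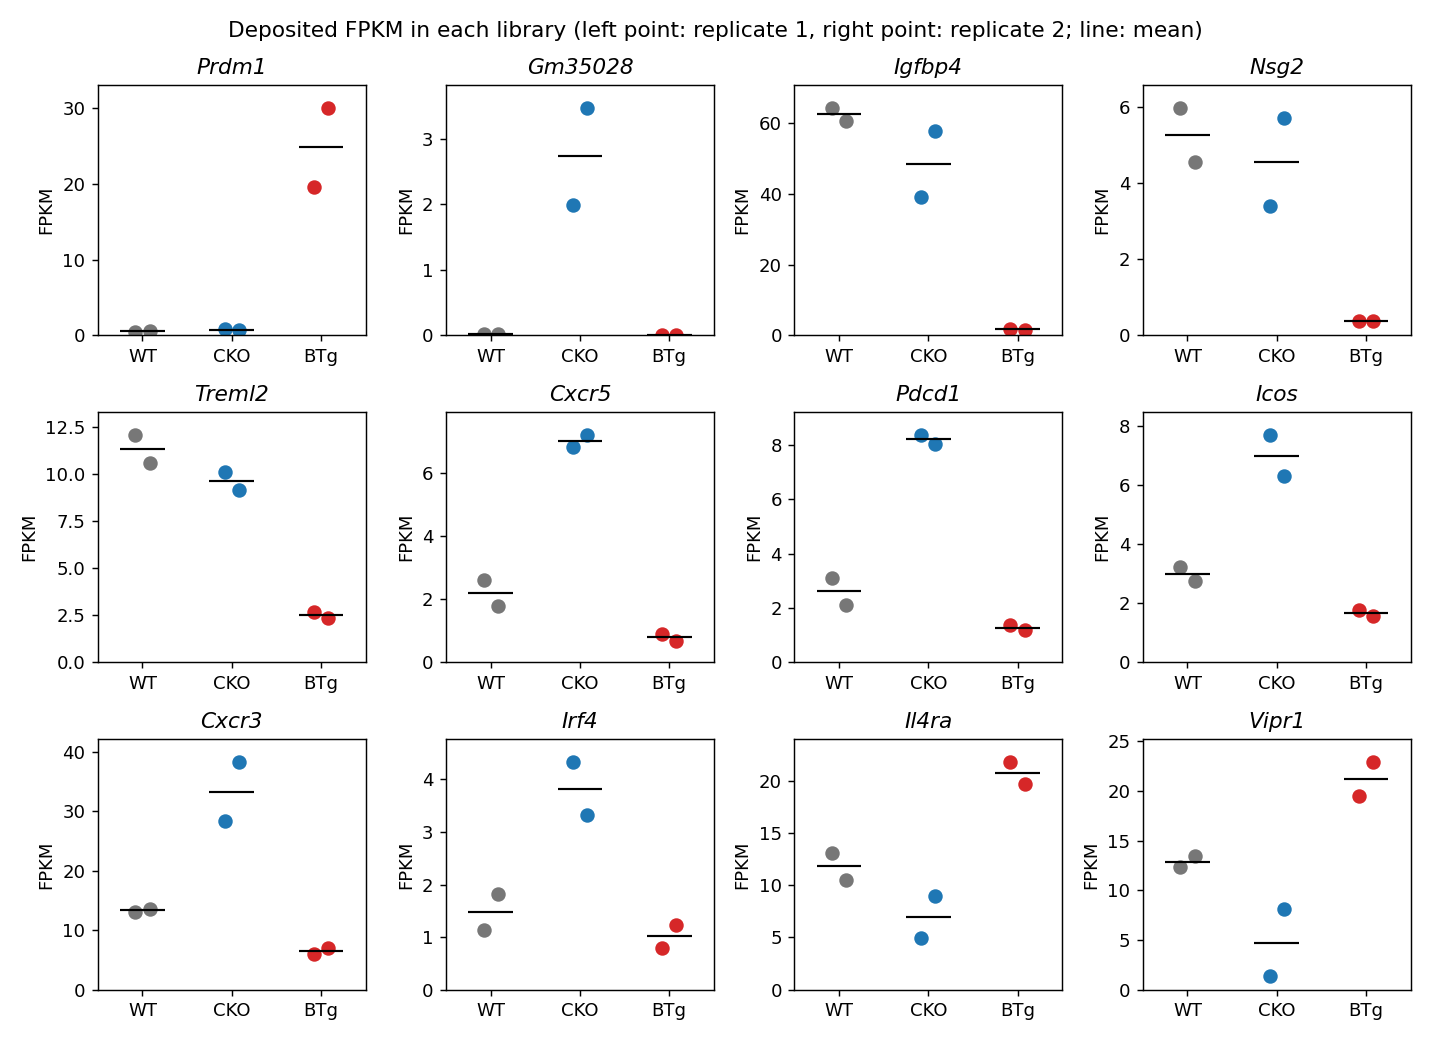
Deposited FPKM of 12 genes in each library (left point replicate 1, right point replicate 2, line the mean of the group; every y axis starts at 0). Prdm1 reaches 19.6 and 30.1 FPKM in BTg and at most 0.849 elsewhere, and Gm35028 reaches 1.99 and 3.47 in CKO and at most 0.0221 elsewhere. For Igfbp4, Nsg2 and Treml2 all WT and CKO points lie above BTg, with both CKO points below both WT points for Igfbp4. For Cxcr5, Pdcd1, Icos and Irf4 the WT points lie nearer to BTg.

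Igfbp4 and a few other genes of naive T cells were lower in BTg, while most of the naive and quiescence list was not. Igfbp4 (ENSMUSG00000017493, chromosome 11, 99041244 to 99054392 on GRCm38, plus strand) encodes an insulin-like growth factor binding protein and is a marker of naive T cells. It stood at 39.1 and 57.8 FPKM in CKO, 64.4 and 60.6 in WT, and 1.87 and 1.48 in BTg. It fell by 4.19 (SE 0.29) on the log2(FPKM + 1) scale against CKO (limma adjusted p = 0.0363), an 18.2-fold difference on the FPKM + 1 scale. Both CKO libraries lie below both WT libraries for Igfbp4, and both BTg libraries lie far below all 4.

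Nsg2, encoding a neuronal vesicle protein that is also a marker of naive T cells, stood at 3.41 and 5.73 FPKM in CKO, 5.99 and 4.57 in WT and 0.372 and 0.366 in BTg (log2 difference -1.99, SE 0.27, limma adjusted p = 0.158). Treml2, a surface receptor of the TREM family, stood at 10.1 and 9.18 in CKO, 12.1 and 10.6 in WT and 2.7 and 2.36 in BTg (log2 difference -1.59, SE 0.21, limma adjusted p = 0.158). Nsg2 passed when recomputed with exon length (limma adjusted p = 0.0463), since the deposited FPKM divide by the genomic span. That setting was added after seeing the data. With limma voom on recovered reads Nsg2 did not pass (adjusted p = 0.0687). For both genes the BTg libraries are close to each other and below all 4 others.

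Id3, an inhibitor of E proteins, also on this list, stood apart as lower too, with 26.1 and 42.6 FPKM in CKO and 14.7 and 8.54 in BTg. Dapl1, a death-associated protein-like gene chosen after its values were seen, was listed at 0 and 0.00328 FPKM in BTg, 0.378 and 1.29 in CKO, and 5.45 and 1.72 in WT. The transcription factors of the naive state did not share this pattern. Tcf7, needed for naive and memory T cells, stood at 36.8 and 35.6 FPKM in BTg, 17.5 and 34 in CKO and 33.6 and 35.6 in WT. Klf2, which drives expression of S1pr1, stood at 174 and 115 in BTg and 51.8 and 113 in CKO. S1pr1, the receptor for exit from lymphoid tissue, stood at 123 and 98.2 in BTg and 38.6 and 79.2 in CKO. In all 3 CKO replicate 1 is the low library and CKO replicate 2 lies nearer to WT.

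Over the naive and quiescence list, 17 of 24 tested members had a higher mean in BTg and 7 a lower one, where 56.1% and 43.9% of all genes tested did. The groups did not overlap for 15 as higher and 6 as lower, beside 17.8% and 21.8% of all genes. Of the 24, 1 stood apart as higher and 5 as lower, beside 0.537% and 3.29% of all genes. The median difference was 0.67 against both CKO libraries and 0.29 against CKO replicate 2 alone, beside 0.06 and -0.05 over all genes tested. It lay close to the CD4 T cell identity list, at 0.65 and 0.42. The part of CKO replicate 1's other cells in the higher values was not tested. Ccr7, the lymph node homing receptor, had a difference of 0.54 against both and -0.08 against CKO replicate 2. Il7r, the interleukin-7 receptor chain, stood at 8.39 and 9.71 FPKM in BTg, 9.2 and 19.1 in CKO, and 26.1 and 19.3 in WT, so that BTg overlapped CKO.

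Most tested transcripts of the Tfh list were lower in BTg. The 2 groups did not overlap for 16 of 20 tested Tfh genes lower in BTg and for 2 higher, and 7 stood apart as lower and 0 as higher. Over all genes tested 21.8% did not overlap as lower and 17.8% as higher, and 3.29% stood apart as lower and 0.537% as higher. The list's median was -0.97 against both CKO libraries and -0.81 against CKO replicate 2. No member passed the limma threshold over all genes.

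Cxcr5 (chromosome 9, 44511787 to 44561877), which guides cells into B cell follicles, stood at 6.82 and 7.19 FPKM in CKO, 2.61 and 1.79 in WT and 0.914 and 0.685 in BTg. The 3 groups do not overlap, and the difference of BTg from CKO was -2.16 (SE 0.22, limma adjusted p = 0.11). The limma adjusted p of Cxcr5 was 0.0463 with exon length and 0.1 with voom on recovered reads. Pdcd1 (chromosome 1, 94038305 to 94052553), encoding the inhibitory receptor PD-1, stood at 8.37 and 8.03 FPKM in CKO, 3.12 and 2.13 in WT and 1.38 and 1.18 in BTg. Its difference was -2.01 (SE 0.22, limma adjusted p = 0.136), again with WT between the other groups. Icos (chromosome 1, 60977927 to 61000320), a costimulatory receptor needed for Tfh cells, stood at 7.69 and 6.29 FPKM in CKO, 3.23 and 2.75 in WT, and 1.77 and 1.56 in BTg, a difference of -1.58 (SE 0.20, limma adjusted p = 0.158).

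Fam43a stood at 5.97 and 4.55 FPKM in CKO and 1.11 and 0.826 in BTg. Maf, a transcription factor that promotes interleukin-4 and interleukin-21 transcription, stood at 9.54 and 13.7 in CKO, 5.3 and 5.96 in WT, and 4.77 and 4.75 in BTg. Bcl6 was lower in BTg without standing apart, at 1.04 and 1.13 FPKM against 2.42 and 2.83 in CKO and 1.17 and 1.6 in WT (difference -0.80, SE 0.21, limma adjusted p = 0.412). For Bcl6 the WT and BTg libraries thus lay close together, with both CKO libraries above them.

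Some members of the Tfh list followed CKO replicate 1. Cebpa, a myeloid transcription factor that the list includes, stood at 31 and 10.9 FPKM in CKO and 1.87 and 1.52 in BTg, with CKO replicate 1 far above replicate 2. Sostdc1, a secreted BMP and WNT antagonist that the naming rule left out and that is named after its values were seen, stood at 3.01 and 1.01 FPKM in CKO and at 0 in both BTg libraries. The other 5 that stood apart (Cxcr5, Pdcd1, Icos, Maf and Fam43a) differed by -1.36 or more in size against CKO replicate 2 alone.

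Coinhibitory receptor genes were mostly lower in BTg. Of 8 tested, Pdcd1 included, 5 did not overlap as lower in BTg (21.8% of all genes) and 1 as higher (17.8%), and Pdcd1, Lag3 and Tigit stood apart as lower (3.29% of all genes), with a median of -0.79 against both CKO libraries and -0.82 against CKO replicate 2. Lag3, which binds MHC class II, stood at 8.33 and 5.37 FPKM in CKO, 2.06 and 1.98 in WT and 1.31 and 1.44 in BTg (difference -1.70, SE 0.24, limma adjusted p = 0.175). Tigit, which competes with CD226 for its ligands, stood at 2.96 and 3.25 in CKO, 0.869 and 0.845 in WT and 0.502 and 0.433 in BTg (difference -1.48, SE 0.20, limma adjusted p = 0.158). The limma adjusted p of Tigit was 0.0463 with exon length and 0.0958 with voom on recovered reads. Both receptors were highest in CKO by a margin wider than the gap between WT and BTg. The other 5 members, some of them named after their values were seen, had differences of -0.96 for Cd200, -0.63 for Ctla4, -0.08 for Cd96, 0.04 for Btla and 0.49 for Vsir. Vsir, which encodes VISTA, was the member higher in BTg without overlap, at 23.5 and 22.1 FPKM against 15.5 and 16.4 in CKO and 18.7 and 16.2 in WT.

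Effector and memory genes were lower in BTg in 23 of 24 tested members, 20 of them without overlap and 9 apart, beside 43.9%, 21.8% and 3.29% of all genes. The median was -1.0 against both CKO libraries and -0.95 against CKO replicate 2. Cxcr3 (chromosome X, 101731535 to 101734269), through which type 1 helper cells reach inflamed tissue, stood at 28.3 and 38.3 FPKM in CKO, 13.1 and 13.6 in WT and 6.02 and 6.99 in BTg (difference -2.18, SE 0.26, limma adjusted p = 0.151). The WT libraries lie between the other groups, and CKO replicate 2 has the highest value. Itgb1, the beta-1 integrin chain, stood at 18 and 19.4 in CKO, 12.7 and 11.7 in WT and 6.72 and 5.85 in BTg (difference -1.44, SE 0.22, limma adjusted p = 0.209).

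Gzmk, a granzyme, stood at 1.83 and 2.47 FPKM in CKO and 0.205 and 0.101 in BTg. Eomes, a T-box factor of cytotoxic and memory cells, is not on the effector and memory list. It stood at 1.29 and 2.59 in CKO, 1.09 and 1.11 in WT and 0.147 and 0.178 in BTg. Other effector members carried most of their CKO signal in replicate 1. S100a6, a calcium-binding protein, had 194 and 72.2 FPKM in CKO and 16.1 and 14.9 in BTg, and Anxa1, which myeloid cells also express, had 68.9 and 3.12 in CKO and 1.25 and 0.811 in BTg. Nkg7, a granule protein of cytotoxic cells, had 133 and 29.8 in CKO and 8.63 and 9.22 in BTg.

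Chemokine receptor genes were mostly lower in BTg. Of 12 tested, 10 had a lower mean, beside 43.9% of all genes. The groups did not overlap for 8 as lower and 1 as higher, beside 21.8% and 17.8% of all genes. The median was -1.06 against both CKO libraries and -0.89 against CKO replicate 2. Of the 12, 4 stood apart as lower in BTg and 1 as higher, beside 3.29% and 0.537% of all genes. Besides Cxcr3 and Cxcr5, the lower ones were Ccr4, a receptor of type 2 helper and regulatory T cells, at 7.47 and 8.62 FPKM in CKO against 2.07 and 2.16 in BTg, and Ccr10, a skin-homing receptor, at 4.57 and 2.42 against 0.509 and 0.601. Gpr15, a homing receptor for the large intestine outside that list, stood at 7.44 and 5.13 FPKM in CKO, 2.13 and 1.48 in WT and 0.68 and 0.49 in BTg (difference -2.18, SE 0.25, limma adjusted p = 0.148). Ccr9, the homing receptor for the small intestine, went the other way, at 2.84 and 2.33 in BTg, 1.22 and 0.913 in WT and 0.234 and 0.728 in CKO (difference 1.29, SE 0.25, limma adjusted p = 0.258).

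Regulatory T cell genes were lower in BTg in 11 of 14 tested members, all 11 without overlap, and 3 stood apart, beside 43.9%, 21.8% and 3.29% of all genes. The median was -0.64, and -0.69 against CKO replicate 2. Foxp3, the defining factor of regulatory T cells, stood at 3.27 and 3.8 FPKM in BTg, 6.02 and 8.88 in CKO and 5.07 and 5.99 in WT, a difference of -0.88 (SE 0.25, limma adjusted p = 0.442). The 3 that stood apart were Tigit, Nt5e, which encodes the ectonucleotidase CD73, at 4.28 and 5.03 FPKM in CKO and 1.43 and 1.55 in BTg, and Tnfrsf4, encoding OX40, at 22.4 and 19.3 against 8.34 and 9.89. Of 16 tested cytokines and TNF ligands, 9 did not overlap as lower in BTg and 3 as higher, beside 21.8% and 17.8% of all genes. Of the 16, 2 stood apart as lower and 0 as higher, beside 3.29% and 0.537% of all genes. The 2 were Tnfsf14 (LIGHT), at 2.48 and 1.78 FPKM in BTg against 7.3 and 6.5 in CKO, and Tnfsf8 (CD30 ligand), at 1.13 and 1.23 against 3.56 and 3.72. The TNF ligands Cd40lg and Fasl were among the 3 higher without overlap, by 0.78 and 0.58.

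Interleukin-21 itself was lower in BTg and its receptor was not. Il21 stood at 2.72 and 1.26 FPKM in CKO, from 350 and 161 reads, 0.576 and 0.562 in WT and 0.299 and 0.268 in BTg, from 33 and 29 reads. The groups do not overlap, and the difference of -1.17 against both CKO libraries was -0.81 against replicate 2 (SE 0.29, limma adjusted p = 0.382). Il21r stood at 9.03 and 10.6 FPKM in BTg, 3.62 and 6.43 in CKO and 5.45 and 6.11 in WT. Its difference was 0.88 against both CKO libraries (SE 0.29, limma adjusted p = 0.483) and 0.54 against replicate 2. Ligand and receptor thus differed in opposite directions between BTg and CKO, while for Il21r both WT libraries lay within the CKO range.

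Of 21 tested genes of interleukin-21 and STAT signalling only Irf4 stood apart, as lower, beside 3.29% of all genes. The list's median was 0.00, or -0.12 against CKO replicate 2. Irf4, a transcription factor induced by T cell receptor signals and required for effector and Tfh differentiation, stood at 4.33 and 3.32 FPKM in CKO, 1.13 and 1.82 in WT and 0.801 and 1.23 in BTg (difference -1.26, SE 0.25, limma adjusted p = 0.262). Socs3, a feedback inhibitor of STAT3 signalling, stood at 218 and 205 FPKM in BTg and 120.1 and 119 in CKO, where WT also had 121 and 119 (difference 0.81, SE 0.29, limma adjusted p = 0.512). The 4 WT and CKO libraries thus lay within 119 to 121 FPKM for Socs3. Ifng, the type 1 helper cytokine, stood at 0.225 and 0.208 FPKM in BTg and 1.05 and 1.14 in CKO, and Il2 and Il10 were below the filter on low values in all libraries.

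Egr2, a transcription factor induced by T cell receptor signals, stood apart as lower, at 1.91 and 2.34 FPKM in BTg, 5.14 and 5.67 in CKO and 2.86 and 3.34 in WT. The immediate early and stress list as a whole had 17 of 21 tested members with a higher mean in BTg, beside 56.1% of all genes. Its median was 0.48, or 0.31 against CKO replicate 2. In this list 1 member stood apart as lower and 0 as higher, beside 3.29% and 0.537% of all genes. Zbtb32, a zinc-finger repressor of the BTB family, and Rgs16, a regulator of G protein signalling, were chosen after their values were seen. Zbtb32 stood at 4.15 and 4.7 FPKM in CKO and 1.13 and 0.984 in BTg, and Rgs16 at 6.42 and 5.45 against 1.29 and 1.12. WT was close to BTg for both, at 1.76 and 1.53 for Zbtb32 and 2.16 and 1.74 for Rgs16.

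Of 13 tested genes described elsewhere as Blimp-1 targets in lymphocytes, 7 did not overlap as lower in BTg and 3 as higher, beside 21.8% and 17.8% of all genes. Cxcr5, Pdcd1 and Id3 stood apart as lower and 0 as higher, beside 3.29% and 0.537% of all genes. The median was -0.35, or -0.55 against CKO replicate 2. Myc, which Blimp-1 represses in B cells, stood at 13.4 and 15.4 FPKM in BTg, 16.1 and 21.5 in CKO and 14.2 and 23.7 in WT. None of 14 tested corepressor partners of Blimp-1, such as Hdac1, Hdac2, Ehmt2 and Kdm1a, stood apart, and their median was -0.02. These lists were chosen with earlier results of these data known.

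**Figure D4:**
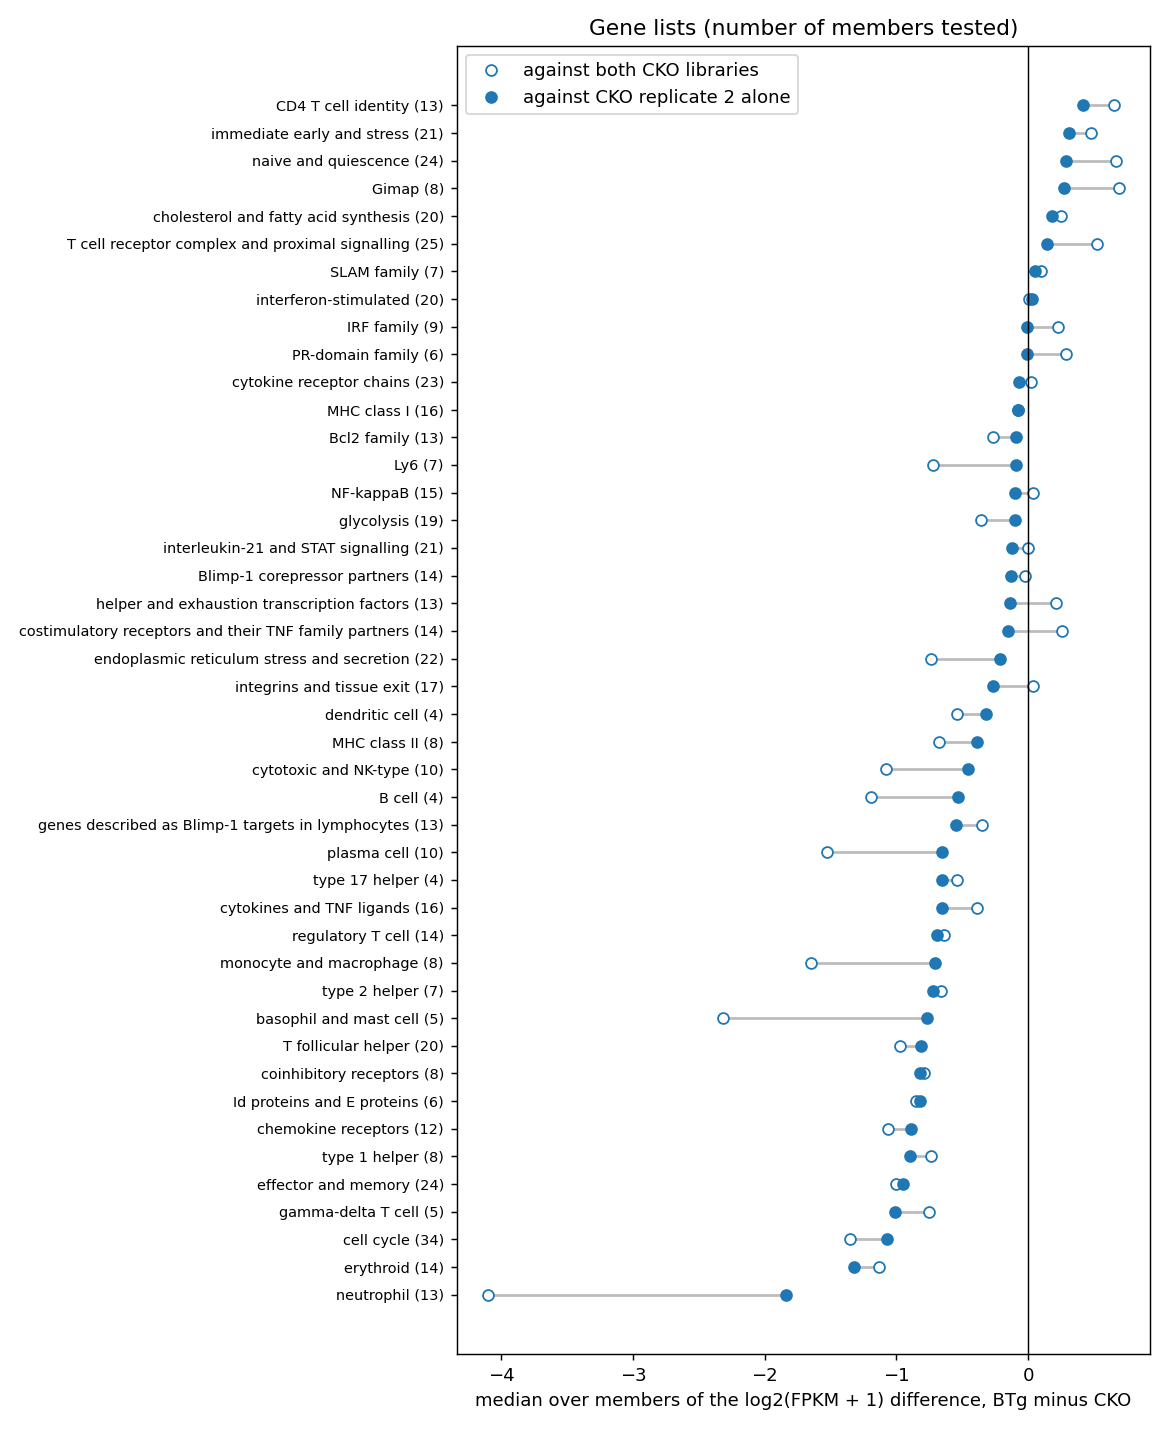
Median difference in log2(FPKM + 1), BTg minus CKO, over the tested members of each list with at least 3, against both CKO libraries (open circles) and against CKO replicate 2 alone (filled circles). The neutrophil list moves from -4.10 to -1.84 between the 2 and the Tfh and effector lists from -0.97 to -0.81 and from -1.0 to -0.95.

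The protein-coding genes higher in BTg were few, and Prdm1 led them. Il4ra (chromosome 7, 125552120 to 125579474), the receptor chain shared by interleukin-4 and interleukin-13, stood at 21.8 and 19.7 FPKM in BTg, 13.1 and 10.5 in WT and 4.95 and 8.97 in CKO (difference 1.49, SE 0.32, limma adjusted p = 0.299). Vipr1 (chromosome 9, 121642716 to 121672954), the receptor for vasoactive intestinal peptide that resting T cells express, stood at 19.5 and 22.9 in BTg, 12.3 and 13.4 in WT and 1.33 and 8.14 in CKO (difference 2.26, SE 0.61, limma adjusted p = 0.432). Pde3b, a cyclic nucleotide phosphodiesterase, stood at 33 and 31.4 in BTg, 14.8 and 15 in WT and 5.98 and 11.8 in CKO (difference 1.81, SE 0.34, limma adjusted p = 0.245). In each of the 3 both BTg libraries were above both WT libraries, which were above both CKO libraries.

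Cldn4, a tight junction claudin, stood at 3.03 and 3.02 FPKM in BTg and 0.155 and 0.404 in CKO (difference 1.66, SE 0.23, limma adjusted p = 0.158). Pdlim4, an actin-associated PDZ and LIM protein, stood at 16.5 and 15.9 in BTg, 9.44 and 7.81 in WT and 1.16 and 5.08 in CKO, and Ppm1j, a protein phosphatase, at 11.2 and 15 in BTg, 5.25 and 7.39 in WT and 1.07 and 4.26 in CKO. CKO replicate 1 was the lower CKO library for all of these but its partner was still below both BTg libraries. Lrrc75b, Hist1h4h, Slc16a5, Als2cl, Selenop and Tmie, at differences of 1.33 to 2.36, fill the group together with Ccr9 and a predicted gene.

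Of the 153 higher genes lost against CKO replicate 2 alone, 8 are named by rule. These were higher in BTg without overlap, by 1.33 to 1.66 against both CKO libraries and by less than 1 against CKO replicate 2. Among them, Prf1, encoding perforin, stood at 10.1 and 9.76 FPKM in BTg, 7.5 and 5.6 in WT, and 1.86 and 4.51 in CKO. Tsc22d3, a glucocorticoid-induced leucine zipper, stood at 91.4 and 105 in BTg, 100.4 and 78.8 in WT and 19.3 and 75.2 in CKO, so that only CKO replicate 1 was far from the rest.

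Promoters were searched for AGNGAAAG on both strands, letters held in common by described Blimp-1 sites, because the groups differ in Blimp-1. RefSeq windows (GRCm38.p6) run from 250 bases before to 50 after a gene's start. A match was present in 2836 of 32851 windows (8.63%) and in 581 of 6751 tested protein-coding genes with a window (8.61%). Among the genes that stood apart it was present in 12 of 149 lower in BTg (8.05%) and in 2 of 11 higher (18.2%). Of 107 genes named by rule 82 had a window, and Cd44, Il4ra, Lyz2, Mpeg1, Tsc22d3 and Vipr1 held a match. The windows of the 2 that stood apart as higher in BTg are shown with the match in capitals, Il4ra at chr7:125552021-125552320 and Vipr1 at chr9:121642466-121642765, both on the plus strand. Counted from the RefSeq start, the match begins 223 bases before the start of Il4ra, written as -223, and at -221 for Vipr1. The RefSeq start of Il4ra lies inside the gene span given above, which begins at 125552120.
Il4ra: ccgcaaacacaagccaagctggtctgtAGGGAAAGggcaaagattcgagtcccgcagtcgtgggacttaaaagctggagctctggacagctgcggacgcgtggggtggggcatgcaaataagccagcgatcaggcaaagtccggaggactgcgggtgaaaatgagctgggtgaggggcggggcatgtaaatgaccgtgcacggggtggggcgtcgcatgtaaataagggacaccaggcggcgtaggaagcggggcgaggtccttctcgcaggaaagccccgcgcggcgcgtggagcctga
Vipr1: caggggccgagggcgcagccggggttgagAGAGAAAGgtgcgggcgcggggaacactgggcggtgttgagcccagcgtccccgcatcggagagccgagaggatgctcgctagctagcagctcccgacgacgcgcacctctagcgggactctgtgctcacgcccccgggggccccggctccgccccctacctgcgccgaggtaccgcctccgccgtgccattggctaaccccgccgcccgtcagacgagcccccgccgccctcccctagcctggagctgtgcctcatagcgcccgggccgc
A match is a description of these letters, and binding was not measured.

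Genes of the T cell receptor and its signalling were higher in BTg by small amounts that shrank without CKO replicate 1. Of 25 tested members 22 had a higher mean, 14 without overlap and 0 apart, beside 56.1%, 17.8% and 0.537% of all genes, with a median of 0.52 against both and 0.14 against CKO replicate 2. All 8 Gimap genes, GTPases of lymphocyte survival, had a higher mean and 0 stood apart, with medians of 0.69 and 0.27. The CD4 T cell identity markers did likewise, with 12 of 13 higher. Their summed level was 2562 and 2086 FPKM in BTg, 1275 and 1705 in CKO and 2296 and 1550.5 in WT. The 2 BTg libraries lay above both CKO libraries and WT spanned a range from near CKO to near BTg.

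Cell cycle genes were lower in BTg in 34 of 34 tested members, all without overlap, and 19 stood apart, beside 43.9%, 21.8% and 3.29% of all genes, with a median of -1.35 against both CKO libraries and -1.07 against CKO replicate 2. Mki67, a marker of dividing cells, stood at 5.59 and 9.87 FPKM in BTg, 30 and 26 in CKO, and 4.96 and 28.3 in WT (difference -1.77, SE 0.73, limma adjusted p = 0.571). Top2a, a topoisomerase of dividing cells, stood at 24.8 and 37.5 in BTg, 177 and 93.3 in CKO and 29.1 and 94 in WT. Aurkb, a mitotic kinase, stood at 3.53 and 6.43 in BTg, 21.3 and 16.3 in CKO and 2.84 and 17 in WT. For all 3 WT replicate 1 lay at the level of BTg and WT replicate 2 at that of CKO replicate 2.

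Erythroid markers varied in the same way. They were lower in BTg in 13 of 14 tested members, 8 of them apart, beside 43.9% and 3.29% of all genes. Their summed level was 161 and 253 FPKM in BTg, 556 and 829.9 in CKO and 148 and 1313 in WT. Hba-a1, an alpha globin, stood at 48.6 and 100.2 FPKM in BTg, 226 and 383 in CKO and 47.2 and 639 in WT. The erythroid median was -1.13 against both CKO libraries and -1.32 against CKO replicate 2, so this list, unlike the neutrophil list, was not larger with CKO replicate 1. The part of dividing erythroid cells in the cell cycle values was not tested.

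Neutrophil markers gave the lowest median of any list. Of 13 tested, 12 stood apart as lower in BTg, beside 3.29% of all genes. S100a8, a calcium-binding protein of neutrophils, stood at 1.46 and 1.41 FPKM in BTg, 3612 and 43.8 in CKO and 7.55 and 24.5 in WT (difference -7.37, SE 1.90, limma adjusted p = 0.403). Ngp, a granule protein, stood at 0.181 and 0.348 in BTg and 310.4 and 9.76 in CKO. Even CKO replicate 2 was above BTg for both, and WT replicate 2 lay between them.

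The basophil and mast cell, monocyte and macrophage, and plasma cell lists were lower in BTg in 5 of 5, 8 of 8 and 9 of 10 tested members. Of these, 2, 3 and 4 stood apart. Over all genes tested 43.9% had a lower mean and 3.29% stood apart as lower. The medians of these lists were -2.32, -1.65 and -1.53 against both CKO libraries and -0.77, -0.71 and -0.65 against CKO replicate 2. Prss34, a basophil protease, stood at 0.74 and 1.36 FPKM in BTg and 102 and 10.4 in CKO, and Lyz2, the lysozyme of myeloid cells, at 2.88 and 3.25 against 183 and 25.3. Jchain, which joins antibody chains in plasma cells, stood at 99.8 and 56.4 in BTg, 724 and 176 in CKO and 125 and 109.7 in WT. Of 226 tested immunoglobulin segments 126 stood apart as lower and 5 as higher, beside 3.29% and 0.537% of all genes. The segments had a median of -1.94 against both CKO libraries and -1.21 against CKO replicate 2. Ighv1-64, a variable segment chosen after its values were seen, had 311 and 293 FPKM in CKO, 30 and 45.1 in WT and 25.7 and 26.5 in BTg (limma voom adjusted p = 0.0295). It was as high in CKO replicate 2 as in replicate 1, although the summed share of immunoglobulin reads was not.

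The remaining classes were mixed. Of 621 tested small RNA genes 27 stood apart as higher and 15 as lower, and of 182 T cell receptor segments 5 as higher and 2 as lower. Over all genes tested 0.537% stood apart as higher and 3.29% as lower. The medians of these classes were 0.25 and 0.71, and -0.16 and 0.23 against CKO replicate 2. Small RNA genes are short, so a few reads can carry them past the filter. Mir1929, chosen after its values were seen, stood apart as lower from 5 and 6 reads in CKO and 0 and 3 in BTg. Irgc1, of the immunity-related GTPase family, had 0.508 and 1.48 FPKM in BTg, 3.11 and 14.9 in CKO and 14.6 and 18.1 in WT, so that CKO replicate 1 was the lower CKO library. The interferon-stimulated list had 10 of 20 tested members higher and 10 lower, beside 56.1% and 43.9% of all genes, with a median of 0.01. Usp18, a brake on interferon signalling, was its 1 member apart, at 4.68 and 8.89 in BTg against 11 and 18.5 in CKO.

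Several named genes share positions with another gene, so the division of reads among the pair is uncertain. They include Cxcr5 with Bcl9l, Gpr15 with Cpox, Ccr10 with Cntnap1, Gzmk with Esm1 and Als2cl with Tmie. Icos, Il21, Il4ra, Bcl6, Eomes, Maf, Cebpa, Irgc1, Mki67, Top2a and Usp18 share positions with predicted genes. Foxp3, Tcf7 and Ccr9 do so with several genes, Lztfl1 and Slc6a20a among those of Ccr9. Prdm1, Igfbp4, Nsg2, Treml2, Pdcd1, Lag3, Tigit, Cxcr3 and Irf4 overlap none in the annotation.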

How the data were processed

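Libraries came from a NEBNext Ultra kit on TRIzol RNA, per the labels' protocols. The tools were Trimmomatic 0.38, HISAT2 2.1.0 and featureCounts 1.6.0, with GRCm38, per the submitters' processing notes; their settings were not given in the sources used here. FPKM were deposited by the authors for 28914 Ensembl identifiers, all matched to GENCODE M21. With a gene's length taken as the median span of its transcripts, introns included, 100.0% of values above 0 were whole reads within 0.01. Genes with long introns are therefore understated, which bears on the filter and pseudocount.

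Genes at 1 FPKM or more in at least 2 libraries entered 1 limma fit of log2(FPKM + 1) over all 6 libraries (R 4.3.3, limma 3.58.1, eBayes with a trend, 3 residual degrees of freedom). The scale understates changes of low genes. The contrast was BTg minus CKO, with Benjamini-Hochberg adjusted p under 0.05. The script was tested on simulated data. An exact permutation test of 2 against 2 cannot go below 0.333 (two-sided), so none is given.

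Members, lists and rules were chosen with earlier results of these data known. Named genes are up to 20 per direction that stood apart with at least 2 FPKM in the higher group, up to 8 more per direction by difference without overlap, up to 4 apart per list, and 23 fixed genes; 1 gene the rule takes is not reported here. Both BTg titles carry the number 1, so replicate 2 rests on its column name. Alternatives were pseudocounts of 0.1 and 0.5, filters, scalings, eBayes without a trend, the 4 libraries alone, a replicate block, limma voom on recovered reads (at least 10 in 2 libraries), each library left out and, added after seeing the data, exon length. Figures used matplotlib 3.10.9.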

Additional observations from a re-analysis of the deposited data

How the results depend on the processing

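The count of 2 genes called by limma was 0 in a fit of the 4 BTg and CKO libraries only, 0 after quantile normalization, 9 with exon length, 5 with limma voom on recovered reads and 81 with no filter on low values. It was 0 to 238 when each library was left out, with 238 without CKO replicate 2 and 0 without each of the others. That leaves CKO replicate 1 alone in its group, assumed to vary like the other groups. With the replicate number as a block 0 genes were called and both genes had limma adjusted p = 0.103. The deviations of same-numbered libraries correlated at 0.46 between CKO and BTg, at 0.17 between WT and CKO and at 0.47 between WT and BTg. With only 2 numbers and no label that ties them, the numbers are not taken as pairs.

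Prdm1 kept a difference of 3.77 to 5.02 (limma adjusted p = 0.0124 to 0.329) and Igfbp4 of -3.91 to -4.84 (0.0124 to 0.536). Without either BTg replicate Prdm1 did not reach the filter on low values and has no value. Exon length added Cxcr5, Nsg2 and Tigit, each with adjusted p = 0.0463, to the genes called.

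The 58 genes that stood apart as higher became 91 with exon length, 279 with limma voom on recovered reads, 37 at a mean of at least 2 FPKM and 129 with a pseudocount of 0.1. Leaving out libraries gave 55 to 1051, with 1051 without CKO replicate 2 and 93 without BTg replicate 1. The 355 lower became 579, 1692 and 694 with exon length, voom and a pseudocount of 0.1, and 330 to 895 with libraries left out, with 895 without CKO replicate 2. Of the 58 and 355, 29 and 320 were shared with voom. Of the named genes' alternatives 1696 kept direction and side of the threshold, 53 passed where the main fit did not, 14 lost the call and 1 reversed, which was Ccr7, at -0.08 without CKO replicate 1 and 1.17 without CKO replicate 2 against 0.54. The causes were not tested. With 2 libraries a group, only differences far larger than the gaps within groups can pass.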
